A study of Homo sapiens with 3 samples.

Results

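Genes of fatty acid oxidation and ketogenesis were followed in Huh7 cells, an established human hepatoma line, after treatment with chlorogenic acid (CA), a plant polyphenol. The set was a list of 39 genes chosen by function. It held the enzymes and carriers that burn fatty acids and the enzymes of ketone body turnover. The transcriptional regulators of both and a few of their direct targets completed it. These 39 genes were listed with earlier results of these data known. Of these genes, 38 were represented on the array, which named 19736 gene symbols in all, and 37 gave a signal well above background on all 3 arrays. No spot could be assigned to ACOT2, a mitochondrial acyl-CoA thioesterase. The hormone FGF21 had a spot with a processed intensity of 4.05, 5.77 and 7.68 in untreated, CA 50 μM and CA 100 μM cells, which was not well above background on any array.

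There were 3 groups with 1 one-colour Agilent array each: untreated cells, cells given CA at 50 μM and cells given CA at 100 μM, the last 2 for 24 h. All cells grew in DMEM with serum and antibiotics, and the methods of the study name DMSO, the solvent of CA, as the vehicle of its untreated controls. With 1 array per group no difference has a replicate check, no p-value was computed, and every ratio given here compares arrays rather than conditions. Whether a lower signal came from fewer cells carrying an mRNA or from less of it per cell cannot be told apart in total RNA.

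The arrays were alike in detection. Between 70.4% and 71.1% of the 43118 gene spots were well above background. The 75th percentile of their processed intensity was 1059 on the untreated array, 1207 with CA 50 μM and 1249 with CA 100 μM. Each array was therefore scaled to its own 75th percentile, and a scaled signal is given on a scale where that percentile equals 1000. On the CA 100 μM array 2283 gene spots (5.29%) lay in an area with a cluster of unusually bright spots, against 60 and 19 on the other arrays. Of the 14 hepatocyte markers 12 to 13 were well above background, with a median intensity of 21519 to 23193 and a summed intensity of 424407 to 429046. HNF4A was the hepatocyte factor near background, at an intensity of 9.37, 21.8 and 15.5. Markers of fibroblasts were above background for 4 to 5 of 7 genes (summed intensity 621 to 803), those of endothelium for 3 of 5 (801 to 1095) and those of blood cells for 6 of 6 (1130 to 1425), and their part in the results was not tested.

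As background, a fatty acid is first joined to coenzyme A by acyl-CoA synthetases, then passed to carnitine by CPT1A and carried across the inner mitochondrial membrane by SLC25A20. Inside, CPT2 restores the acyl-CoA and the beta-oxidation enzymes shorten it step by step to acetyl-CoA, while electron transfer flavoprotein passes the electrons to the respiratory chain. Very long and branched chains are shortened in peroxisomes. In the fasting liver the nuclear receptor PPARA and its coactivator PPARGC1A switch these genes on, and surplus acetyl-CoA leaves the hepatocyte as ketone bodies.

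PPARA with its partner RXR binds a direct repeat of AGGTCA with 1 base between the copies, so the 250 bases before the start of each gene were searched on both strands for this repeat, allowing up to 2 of its 12 letters to differ. RefSeq promoter windows (GRCh38.p14) were available for 33 of the 39 genes, 11 of them with more than 1 window. ACOX2, ACAA1, EHHADH, ETFDH, DECR1 and CRAT had none. A match stood before 4 of the 33 genes (12.1%), namely CREB3L3, FABP1, ACSL1 and ACAA2, and before 858 of all 27305 genes with a window (3.14%). With no more than 1 letter differing, CREB3L3 alone matched (3.03%), against 97 of all genes (0.355%). A single exact AGGTCA on either strand was present for 2 of the 33 genes (6.06%) and for 14.6% of all genes. These 2 genes were CREB3L3 and FABP1, where it lies inside the match, so this count is not separate from that of the repeat. The windows with a match are shown because these genes are read against the array values below, and capitals mark the matching 13 letters as they read on the strand of the gene. The match began 222 bases before the start in CREB3L3, 68 in FABP1, 114 in ACSL1 and 76 in ACAA2. In FABP1 and ACSL1 the repeat reads on the opposite strand.
CREB3L3, chr19:4153381-4153630, plus strand: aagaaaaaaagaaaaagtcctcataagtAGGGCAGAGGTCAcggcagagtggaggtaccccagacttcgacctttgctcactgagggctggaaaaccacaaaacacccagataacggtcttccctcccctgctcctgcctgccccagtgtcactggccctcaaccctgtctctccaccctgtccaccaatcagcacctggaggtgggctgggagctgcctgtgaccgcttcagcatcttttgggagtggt
FABP1, chr2:88128063-88128312, minus strand: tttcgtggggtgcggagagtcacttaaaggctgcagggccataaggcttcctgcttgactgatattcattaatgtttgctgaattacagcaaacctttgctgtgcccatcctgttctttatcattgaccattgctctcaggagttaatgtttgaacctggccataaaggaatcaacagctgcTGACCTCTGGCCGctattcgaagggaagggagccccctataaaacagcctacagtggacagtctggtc
ACSL1, chr4:184805554-184805803, minus strand: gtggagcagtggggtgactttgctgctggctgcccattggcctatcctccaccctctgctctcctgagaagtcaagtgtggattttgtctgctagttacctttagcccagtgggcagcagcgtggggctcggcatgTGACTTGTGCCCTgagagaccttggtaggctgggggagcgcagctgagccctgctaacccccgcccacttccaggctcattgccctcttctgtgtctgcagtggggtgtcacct
ACAA2, chr18:49813534-49813783, minus strand: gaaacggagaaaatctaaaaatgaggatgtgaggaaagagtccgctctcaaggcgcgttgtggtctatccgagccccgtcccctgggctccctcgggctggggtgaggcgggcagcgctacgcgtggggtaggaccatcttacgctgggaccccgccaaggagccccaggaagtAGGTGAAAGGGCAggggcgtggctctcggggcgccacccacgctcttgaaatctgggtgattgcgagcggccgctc
A match describes these letters and is no evidence of binding. On the arrays, CREB3L3 had log2 ratios to untreated of 0.16 with CA 50 μM and 0.01 with CA 100 μM, and ACSL1 of 0.03 and 0.02. FABP1 was lower at both doses (-0.26 and -0.33), as was ACAA2 (-0.33 and -0.17).

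Most of the genes stayed close to their untreated signal. At CA 50 μM, ACADS was at least 1.5-fold higher than in untreated cells (1 of 37 genes, 2.7%), where 4.15% of all 14697 genes measured were that much higher. PPARGC1A and BDH1 were at least 1.5-fold lower (2 of 37, 5.41%), against 2.17% of all genes. At CA 100 μM no member was at least 1.5-fold higher, against 1.64% of all 14637 genes, and BDH1 alone was that much lower (2.7%), against 1.54%. No member reached 2-fold in either direction at either dose, which 0.973% of all genes did with CA 50 μM and 0.649% with CA 100 μM. Each of these counts is of 0, 1 or 2 genes.

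The median log2 ratio of the 37 genes was -0.12 with CA 50 μM and -0.06 with CA 100 μM, where all genes had -0.04 and -0.03. Below their untreated signal were 27 of 37 genes (73%) with CA 50 μM and 26 (70.3%) with CA 100 μM, against 56.3% and 57.7% of all genes. Among all genes these shares moved with signal strength. Probes were divided into 5 classes of mean signal, and 19 of the 37 genes fell in the brightest. There the median was -0.11 at CA 50 μM both for these 19 genes and for all genes of the class, and -0.06 for both at CA 100 μM. The shares below untreated in this class were 78.9% of the members against 72.8% of all genes at CA 50 μM, and 84.2% against 70.4% at CA 100 μM. At the other end, the 4 genes of the dimmest class, ACADS, BDH1, PDK4 and ANGPTL4, had medians of -0.46 and -0.45 against 0.0011 and -0.06 for all genes of that class.

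**Figure D1:**
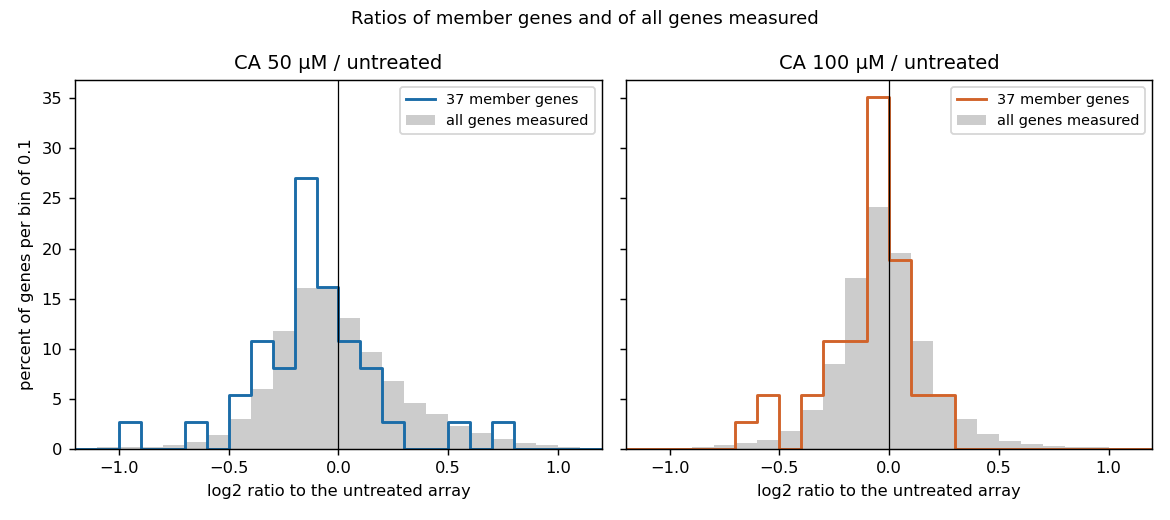
Log2 ratio to the untreated array (x axis) of the 37 member genes (coloured line) and of all genes measured (grey bars), as a percentage of genes per bin of 0.1 (y axis), for CA 50 μM and CA 100 μM. Both distributions centre just below 0, the members at -0.12 and -0.06 and all genes at -0.04 and -0.03.

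The scaling decides the sign of small ratios. Without it, when processed intensities were compared as they stand, 26 of the 37 genes were brighter at CA 50 μM than in untreated cells and 32 at CA 100 μM, because the 75th percentile itself was 0.19 and 0.24 higher on the log2 scale. On that scale the members had medians of 0.07 and 0.18 and all genes of 0.15 and 0.21. Scaling takes 1 constant from every gene of an array, so a ratio is to be read relative to the rest of the array.

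The scatter that a single array allows also depended on signal. For probes printed 10 times, the SD of the log2 ratio between spots had a median of 0.19 in the dimmest class and of 0.05 in the brightest at CA 50 μM, which covers printing and scanning only. Among all genes of the dimmest class 14.3% differed at least 1.5-fold in one direction or the other with CA 50 μM and 12.2% with CA 100 μM. In the brightest class the shares were 0.937% and 0.302%. ACADS and BDH1 are in the dimmest class and PPARGC1A in the next, where the shares were 9.98% and 3.04%.

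**Figure D2:**
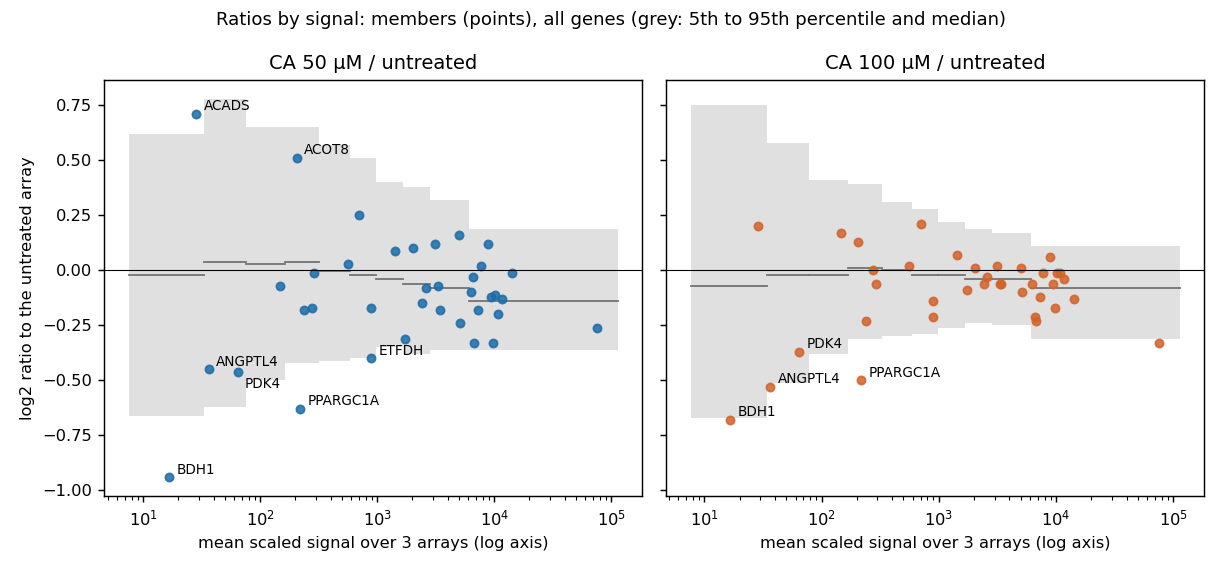
Log2 ratio to the untreated array (y axis) against mean scaled signal over the 3 arrays (x axis, log scale) for the 37 member genes (points), with the 5th to 95th percentile (grey band) and median (grey line) of all genes in 10 steps of signal. The bright members lie near the grey line, and the members with the widest ratios, BDH1, ACADS and PPARGC1A, are dim.

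Of the regulators, PPARGC1A stood lowest against untreated cells. PPARGC1A is the coactivator that drives mitochondrial oxidation with PPARA and other nuclear receptors. Its scaled signal was 284 in untreated cells, 184 with CA 50 μM and 201 with CA 100 μM. Both treated arrays were below the untreated array, by a log2 ratio of -0.63 (0.648-fold) and -0.50 (0.707-fold). Over 11 other ways of processing, the ratio stayed between -0.69 and -0.54 at CA 50 μM and between -0.53 and -0.45 at CA 100 μM. Both ratios were below the 5th percentile of all genes in its signal class, -0.46 and -0.37.

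PPARA itself differed little. Its brighter probe had a scaled signal of 975, 867 and 845, a log2 ratio of -0.17 with CA 50 μM and -0.21 with CA 100 μM. The processed intensities behind these values were 1033, 1046 and 1055, so the probe was as bright on all arrays before scaling. A dim probe of PPARA, with a scaled signal of 31.6, 32.6 and 30.3, had ratios of 0.04 and -0.06. CREB3L3, a liver transcription factor that works with PPARA during fasting, had a scaled signal of 4826, 5395 and 4870.

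Genes of the step that admits fatty acids to mitochondria lay near untreated, with CPT1A and CRAT below it. CPT1A, the carnitine acyltransferase of the outer membrane and the step at which malonyl-CoA restrains oxidation, had a scaled signal of 262, 232 and 223. The log2 ratio came to -0.18 ± 0.08 with CA 50 μM (SD between 10 spots) and -0.23 ± 0.10 with CA 100 μM (SD between 9 spots). The processed intensity of CPT1A was 278, 280 and 279, so, like PPARA, this probe was equally bright on all arrays before scaling. ACSL1, a long-chain acyl-CoA synthetase also printed 10 times, had ratios of 0.03 ± 0.03 (8 spots) and 0.02 ± 0.04 (10 spots).

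CPT2 on the inner membrane had ratios of 0.09 and 0.07, and the carrier SLC25A20 of 0.12 and 0.02. CRAT, which exchanges short acyl groups between coenzyme A and carnitine, had a scaled signal of 7685, 6112 and 6571. Its ratios were lower, -0.33 and -0.23, but not past the 5th percentile of its class (-0.36 and -0.28). Over these 5 genes the median was 0.03 with CA 50 μM and 0.02 with CA 100 μM, against -0.04 and -0.03 for all genes.

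Within the mitochondrial beta-oxidation enzymes, ACADS was high on the CA 50 μM array and the others lay nearer to untreated. ACADS is the dehydrogenase for short-chain acyl-CoA. Its scaled signal was 23.1, 37.8 and 26.6, so CA 50 μM stood apart and CA 100 μM was close to untreated. The ratio was 0.71 (1.64-fold) with CA 50 μM and 0.20 with CA 100 μM. The ACADS spot at CA 50 μM carried a local background flag, its ratio there was just past the 95th percentile of its class (0.71), and the ratio at CA 100 μM was -0.13 after normexp background correction. The dehydrogenases for longer chains, with far brighter probes, were near untreated: ACADVL had ratios of -0.01 and -0.13 and ACADM of -0.07 and -0.06.

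ACADSB, which acts on branched short chains, was seen by probes that disagreed in direction. Its brighter probe had a scaled signal of 5575, 4708 and 5214 with ratios of -0.24 and -0.10, while its dimmer probe had 186, 225 and 226 with ratios of 0.28 and 0.29. No direction is given for this gene.

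The later steps of the spiral were close to untreated. The subunits of the trifunctional protein had ratios of 0.10 and 0.01 (HADHA) and of -0.12 and -0.06 (HADHB). The hydratase ECHS1, printed 10 times, had 0.12 ± 0.02 and 0.06 ± 0.04 (SD between 10 spots). HADH, the dehydrogenase for shorter hydroxyacyl-CoA, had -0.15 and -0.06. For the auxiliary enzymes that handle unsaturated chains the ratios were -0.20 and -0.01 (ECI1) and -0.08 and -0.03 (DECR1). The thiolase ACAA2, which releases acetyl-CoA, was the lowest of this group, with a scaled signal of 10917, 8657 and 9736. Its ratio of -0.33 at CA 50 μM was not past the 5th percentile of its class (-0.36). Over all 11 enzymes the median was -0.08 with CA 50 μM and -0.06 with CA 100 μM, against -0.04 and -0.03 for all genes.

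Electron transfer genes differed from each other. ETFDH, which hands the electrons of beta-oxidation to ubiquinone, had a scaled signal of 1004, 762 and 911. Its ratio was -0.40 at CA 50 μM, below the 5th percentile of its class (-0.36), and -0.14 at CA 100 μM. The subunits of the flavoprotein were flat by comparison, with 0.02 and -0.01 for ETFA and -0.13 ± 0.05 (8 spots) and -0.04 ± 0.05 (9 spots) for ETFB.

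In the peroxisomal group ACOT8 was high and ACOX2 low at CA 50 μM. ACOT8, an acyl-CoA thioesterase, had a scaled signal of 178, 253 and 195 with ratios of 0.51 (1.42-fold) and 0.13. ACOX2, the oxidase for branched chains and bile acid precursors, had 1907, 1540 and 1795 with ratios of -0.31 ± 0.07 and -0.09 ± 0.08 (SD between 10 spots). At CA 50 μM neither ratio passed the bound of its signal class, a 95th percentile of 0.65 for ACOT8 and a 5th percentile of -0.36 for ACOX2. For both genes CA 100 μM lay between the other arrays. The bifunctional enzymes had ratios of -0.01 and -0.06 (EHHADH) and -0.11 and -0.01 (HSD17B4), and the isomerase ECI2 had -0.18 and -0.12.

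Other peroxisomal members carry a qualification. The spots of the thiolase ACAA1 (-0.03 and -0.21) and of PEX11A (-0.17 and 0.0019), a membrane protein of peroxisome division, lay in the disturbed area of the CA 100 μM array. The brighter probe of CROT, the peroxisomal carnitine acyltransferase, had -0.07 and 0.17, while a dim probe had -0.37 and -0.20. Over the 8 genes the median was -0.09 and -0.03.

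Among ketone body genes, BDH1 had the widest ratio of all 37 genes at both doses. BDH1 interconverts acetoacetate and 3-hydroxybutyrate. Its processed intensity was 25.6 in untreated cells, 15.3 with CA 50 μM and 18.9 with CA 100 μM, giving scaled signals of 24.2, 12.7 and 15.2. Both treated arrays were below untreated, by -0.94 (0.523-fold) and -0.68 (0.626-fold), and both ratios were under the 5th percentile of its class, -0.65 and -0.62. These are among the dimmest values that counted as measured, since the 5th percentile of intensity of all probes well above background was 18.7, 19.6 and 22.1 on the 3 arrays. After normexp background correction, which adds an offset of 50 to every intensity, the ratios of BDH1 were -0.38 and -0.42.

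The other ketone body members had narrower ratios. OXCT1, the transferase that tissues outside the liver use to consume ketone bodies, had a scaled signal of 629, 748 and 730, above untreated at both doses with ratios of 0.25 and 0.21. ACAT1, the mitochondrial thiolase at the entry and exit of the pathway, had -0.18 and -0.06 by its brightest probe, and its other probes had -0.02 and 0.03 and -0.02 and 0.10.

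**Figure D3:**
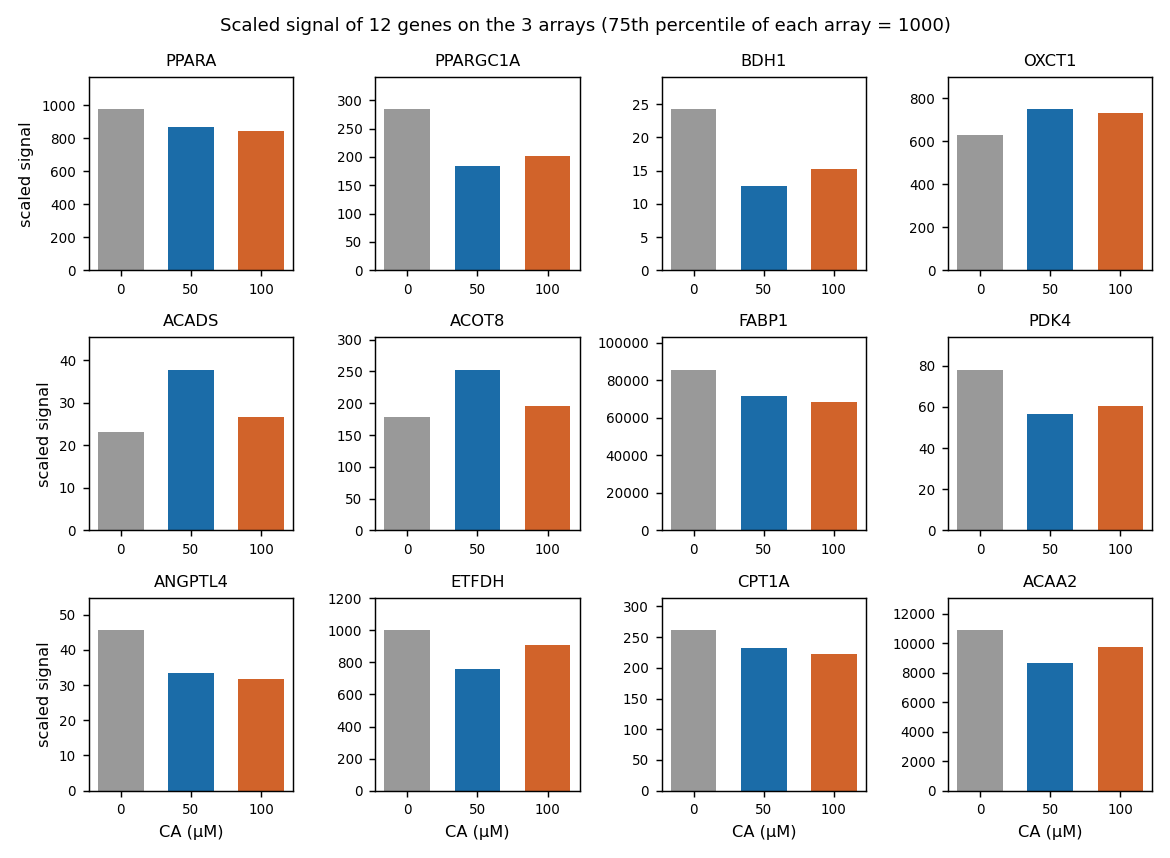
Scaled signal (y axis, linear from 0, each array's 75th percentile set to 1000) of 12 member genes at 0, 50 and 100 μM CA (x axis), 1 bar per array with no replicates. PPARGC1A, BDH1, PDK4 and ANGPTL4 were lower on both treated arrays, OXCT1 was higher on both, and ACADS and ACOT8 were highest at CA 50 μM.

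The 4 targets of PPARA in lipid handling were all below untreated at both doses, as were 56.3% and 57.7% of all genes. In the brightest class, which holds FABP1 and PLIN2, 72.8% and 70.4% of all genes were below untreated. Their median ratio was -0.35 with CA 50 μM and -0.35 with CA 100 μM, against -0.04 and -0.03 for all genes. None reached 1.5-fold, which 6.32% and 3.18% of all genes did in one direction or the other. With other processing the median ranged from -0.45 to -0.22 and from -0.37 to -0.20. A wider list of other PPARA targets, 24 of them measured, had medians of -0.03 and -0.05, with 11 genes above and 13 below untreated at each dose. PDK4, the kinase that shuts off pyruvate dehydrogenase when fatty acids are burned, had a scaled signal of 78.2, 56.7 and 60.5 with ratios of -0.46 and -0.37. ANGPTL4, a secreted inhibitor of lipoprotein lipase, had 45.7, 33.5 and 31.7 with ratios of -0.45 and -0.53. Both are dim probes of the class in which 14.3% and 12.2% of all genes differed at least 1.5-fold.

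FABP1, the fatty acid binding protein of the liver cytosol, was by contrast one of the brightest probes. It had a scaled signal of 85765, 71754 and 68384 and ratios of -0.26 and -0.33. Its ratio was below the 5th percentile of its signal class at CA 100 μM (-0.28) but not at CA 50 μM (-0.36). Its spot at CA 50 μM carried a background flag, and in the log2 table deposited by the authors both of its ratios were -0.01. PLIN2, a coat protein of lipid droplets, had -0.10 and -0.06, near the medians of all genes of its signal class (-0.11 and -0.06). Hepatocyte markers, bright as FABP1 is, had median ratios of -0.17 and -0.13, and their part in the FABP1 values was not tested.

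**Figure D4:**
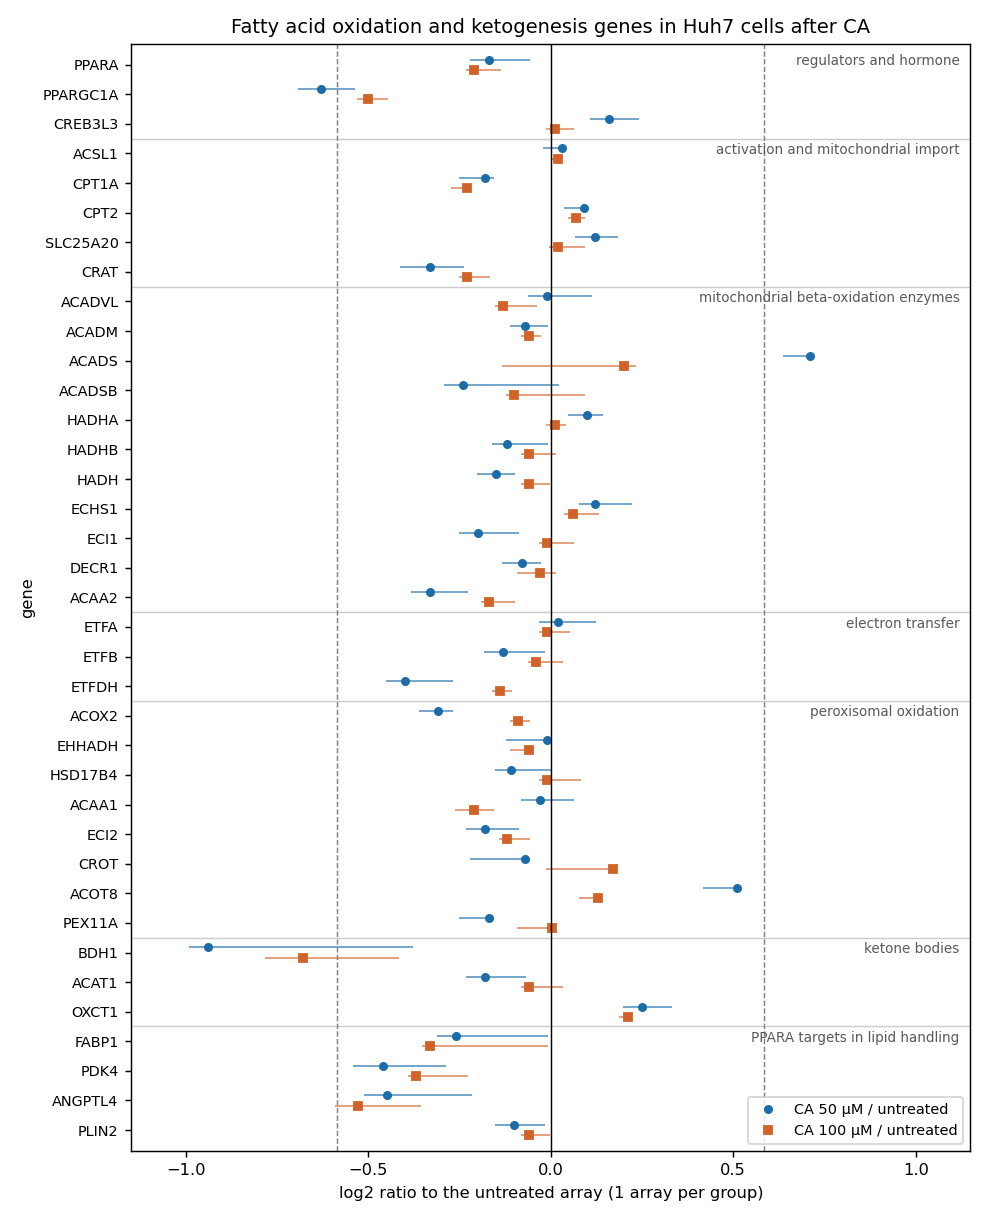
Log2 ratio to the untreated array (x axis) of the 37 member genes (y axis, by role) at CA 50 μM (circles) and CA 100 μM (squares), with thin lines from the lowest to the highest ratio over up to 11 other ways of processing and dashed lines at 1.5-fold. BDH1 lies past a dashed line at both doses, PPARGC1A and ACADS at CA 50 μM alone, and BDH1 has the longest lines (-0.99 to -0.38 at CA 50 μM).

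Compared with CA 50 μM, CA 100 μM gave values nearer to untreated for most members. For 27 of the 37 genes (73%) the scaled signal at CA 100 μM lay between those of the other arrays, against 53.7% of all genes. The ratio to untreated was smaller in size at CA 100 μM for 29 genes (78.4%), against 67.5% of all genes. Set directly against CA 50 μM, no member was at least 1.5-fold higher or lower at CA 100 μM, where 1.39% and 1.53% of all genes were. The widest differences between the doses were -0.51 for ACADS, -0.38 for ACOT8, and 0.26 for both BDH1 and ETFDH. For BDH1 this direction turned after normexp correction, to -0.03. Since each array enters more than 1 of these comparisons, their counts are not independent of each other.

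A wider list of 102 other genes of the same pathways was read in the same way, and 93 of them were measured. At CA 50 μM, 5 were at least 1.5-fold higher (5.38%, against 4.15% of all genes) and 0 lower (against 2.17%), and 1 of these was past 2-fold (against 0.973% either way). At CA 100 μM, 2 were at least 1.5-fold higher (2.15%, against 1.64%) and 0 lower (against 1.54%). The shares of higher genes were near those of the array. The median ratio was -0.05 and -0.03, so the wider pathway centred where the array did.

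The 5 genes past 1.5-fold by their brightest probe all had higher signals after CA and belong to different steps. Dimmer probes of DECR2 (0.98), PNPLA2 (0.63) and MED1 (0.60) were also past 1.5-fold higher at CA 50 μM. Their brightest probes had 0.09, 0.43 and 0.25. A dim probe of PPARGC1B was past it too, with a scaled signal of 35 untreated and 70.2 with CA 50 μM. The brightest PPARGC1B probe had a ratio of 0.0027. No measured dimmer probe of the wider list was that much lower at CA 50 μM. FGFR4, the hepatocyte receptor of the FGF family that restrains bile acid synthesis, had a scaled signal of 167, 339 and 238 with ratios of 1.02 and 0.51. EP300, an acetyltransferase and coactivator of nuclear receptors, had 1058, 1636 and 1587 with ratios of 0.63 and 0.59. Its ratio ranged with the processing from 0.58 to 0.65 at CA 50 μM and from 0.55 to 0.60 at CA 100 μM. At the low end of both ranges EP300 falls short of 1.5-fold.

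UCP2, a carrier of the inner mitochondrial membrane, had a scaled signal of 445, 710 and 489 with ratios of 0.68 and 0.14. PEX5, the import receptor for peroxisomal enzymes, had 100, 153 and 139 with ratios of 0.61 and 0.47. SLC27A4, a fatty acid transport protein, had 36.1, 58.9 and 64.6 with ratios of 0.70 and 0.84. At CA 50 μM, PEX5 and SLC27A4 were below the 95th percentile of all genes in their steps of signal (0.65 and 0.78). At CA 100 μM both were above it (0.41 and 0.58). At CA 50 μM the ratio ranged with the processing from 0.79 to 1.02 for FGFR4, which loses its 2-fold call, and from 0.58 to 0.68 for UCP2, which falls short of 1.5-fold at the low end. The ranges were wider for the last 2 genes, with 0.34 to 0.61 and 0.24 to 0.47 for PEX5 and of 0.16 to 0.70 and 0.28 to 0.86 for SLC27A4, whose spot at CA 100 μM lay in the disturbed area.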

How the data were processed

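Total RNA of Huh7 cells was labelled with Cy3 and hybridised to 1 Agilent 4 × 44 K array per group. The authors extracted spot intensities with Agilent Feature Extraction 11.0.1.1, and the deposited processed intensity is already background-subtracted. They also deposited a table of normalized log2 values whose steps are not given in the sources used here. It served as an alternative. Here, outlier and control spots were left out, and log2 intensity minus the 75th percentile of each array was averaged over the spots of a probe (Python 3.11.15, pandas 2.3.3). RefSeq accessions were matched to symbols (75.5% of 34127 probes were named), leaving out accessions with several genes. The brightest probe well above background on all 3 arrays stood for a gene. Quantile, cyclic loess and normexp alternatives used limma 3.58.1 (R 4.3.3).

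The members, lists and rules were chosen with earlier results of these data known. Values are given for members at least 1.5-fold different, for the 5 widest ratios per dose and for PPARA, PPARGC1A, CPT1A and FGF21, the rest by role. Counting and ratios were tested on simulated data. Row and column positions of spots were used to mark disturbed areas, in windows of 17 rows and 7 columns. MIHA and miRNA arrays of the study were not analysed here.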

Additional observations from a re-analysis of the deposited data

How the results depend on the processing

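No error between cultures is known, and leaving out a replicate was not possible. No paired analysis was possible because each group had 1 array. There were 11 other ways of processing, 1 of them chosen after seeing the data (leaving out spots with background flags). Where a value was left, none turned the sign of a member at least 1.5-fold different at CA 50 μM. ACADS had a value there in 9 of the 11. Normexp and the setting without flagged spots left out its spot, so neither could test its sign. At CA 50 μM, PPARGC1A and BDH1 fell short of 1.5-fold lower after normexp correction (0 in place of 2). This correction adds 50 to each intensity and here left out spots with background flags. With normexp or without spots carrying background flags, no member was at least 1.5-fold higher (0 in place of 1), because ACADS had no value. The median of the members at CA 50 μM was -0.05 in place of -0.12 after quantile normalization and -0.05 in the authors' log2 table. At CA 100 μM, 1 member, FGF21, was at least 1.5-fold higher with no filter on dim probes, and the count of lower members was 0 with normexp and 2 in the authors' table, where ANGPTL4 (-0.59) joined BDH1. The cause was not tested. The other 91 of 99 counts and medians over all members, and 1089 of 1209 single ratios, moved by less than the spread set for them. Of 231 medians of role groups 23 moved by more, among them that of the PPARA targets in lipid handling. A sign was the same under every setting for 31 of 37 members at CA 50 μM (8 higher, 23 lower) and for 23 at CA 100 μM (5 higher, 18 lower). Bounds were not needed, since no member was above background on 1 array of a pair and below it on the other.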
